A study of Mus musculus with 21 samples.

Results

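The genes described here are the collagens and a small set of fibroblast matrix genes, 45 of the 21441 genes in the deposited expression tables of mouse colon and ileum. They were taken by name: every row whose symbol is Col, a number, a and a number (40 genes), plus lumican (Lum), decorin (Dcn), the PDGF receptor Pdgfra, fibronectin (Fn1) and periostin (Postn). Col6a3 and Col12a1, the other abundant collagens of fibroblasts, were not analysed here. The rule uses names only, but it was set with earlier results of these data known.

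The study asked how the vitamin D receptor in the distal intestine contributes to calcium handling and bone, and RNA was sequenced from poly(A)-selected libraries of 21 samples, 11 of colon and 10 of ileum. All mice were of C57BL6J background, and the labels name intestinal epithelium as the tissue. The knockout (KO) groups carried floxed VDR and a tamoxifen-inducible Cre driven by the Villin promoter, which is active in gut epithelium, so stromal cells were not the cells this Cre targets. There were 4 KO samples per tissue, all labelled male, of 9 to 11 weeks and untreated. The other mice were CDX2-VDR transgenics, which lack the endogenous receptor and carry human VDR driven in the distal intestine. They were either left uninjected (4 colon and 3 ileum samples of 9 to 10 weeks, of both sexes) or treated with 1,25D3, the active vitamin D hormone (3 samples per tissue, male, 9 weeks). Treated mice received 3 injections of 1 ng per g body weight, 48, 24 and 6 h before the end. KO and transgenic mice differ in genotype, and the treated and KO groups differ in injection too, so in treated against KO the parts of genotype and treatment cannot be told apart. The uninjected groups are mostly female (3 of 4 in colon, 2 of 3 in ileum) and the others male. The part of sex was not tested for treated against uninjected. A covariate of labelled sex was run only for uninjected against KO colon. There it leaves 1 uninjected library labelled male to set against KO, so it cannot tell sex from that library.

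Collagens are triple helices built from 1, 2 or 3 kinds of chain, secreted as procollagen and assembled outside the cell. Fibrillar collagens (types I, III and V) form the fibres of the gut's connective tissue, type VI forms beaded filaments beside them, and type IV forms the mesh of basement membranes under epithelium, endothelium and muscle. In the intestine fibroblasts make most of the fibrillar matrix, and Pdgfra, Dcn and Lum mark such cells.

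Values are FPKM (fragments scaled by transcript length and by the mapped total), a level per length, and libraries are named by group and the number in their column. The 3 tables of a tissue were scaled separately, so groups were compared only within 1 table. Where all 3 groups are given together, KO and uninjected values come from the table those groups share, and treated values from the one shared with KO. Between tables the same colon library differs by 1 constant factor, from 0.933 to 1.01. The labels tie no sample to an animal, so each p-value rests on sample-to-sample spread that may be partly technical.

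Libraries differed in depth and in tissue content. Where gene values could be turned back into whole numbers (75.4% of colon and 75.6% of ileum genes above 0), these summed to 8.51 M to 39.8 M per library. The sums are a rough guide to reads, since those genes held 59.7% to 81.6% of a library's FPKM. For some genes the number was too high to be reads, such as 14850 for Col2a1 at 0.144 FPKM in Ileum KO 1. Col1a1 had 2108 there at 16.7 FPKM. By these sums the shallowest were Colon treated 2, Ileum uninjected 3 and Colon uninjected 3, with 8.51 M, 9.65 M and 11.7 M against at least 14.5 M elsewhere. These 3 also stand apart in the matrix genes below. Epithelial markers summed to 5482 FPKM or more in every colon library, beside 714 to 7914 FPKM of smooth muscle markers, so the material held more than epithelium. Pancreatic acinar markers summed to 23545 FPKM in Colon KO 2, 78465 in Colon uninjected 3 and 11765 in Colon treated 4, against at most 755 in the other 8 colon libraries. The calcium channel gene Trpv6, a target of the receptor, was at 0.0906 to 0.699 FPKM in the colon KO libraries and at 75.3 to 388 FPKM in the other 7. Mouse Vdr itself was at 20.6 to 23.5 FPKM in colon KO and 12.7 to 39.9 FPKM in the others, a gene total that does not show whether the floxed part is missing. Ddx3y, a Y-linked gene, went against the sex labels in 2 libraries: it was at 12.1 FPKM in Colon uninjected 3, labelled female, and at 1.76 FPKM in Ileum treated 1, of an all-male group whose other libraries had 11.4 and 15.1 FPKM. The uninjected ileum libraries 1, 3 and 4, not tied to single labels but labelled 2 female and 1 male as a group, had 0.0347, 2.32 and 8.98 FPKM, so library 3 lay between the levels of the other two. In such bulk samples fewer cells of a type and less RNA per cell cannot be told apart.

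Of the 45 members, 29 reached a mean of 1 FPKM in at least 1 of the 6 comparisons and were tested there, and 21 were tested in all 6. The 16 never tested were collagens, 12 of the 45 stayed under 1 FPKM in every library, and Col9a1 was listed at 0 throughout. Tested members were all 5 fibroblast genes, 7 of 11 fibrillar, 4 of 8 fibril-associated, 3 of 4 type VI, 3 of 6 type IV, both multiplexins, 2 of 3 short-chain network, 2 of 4 transmembrane collagens and Col28a1. In each library 5 members held between 59.0% and 77.3% of the members' summed FPKM. Dcn, Col3a1, Col1a2 and Col6a1 recur among those 5. All members together were 0.0300% to 0.208% of a library's FPKM, highest in Colon treated 2.

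**Figure D1:**
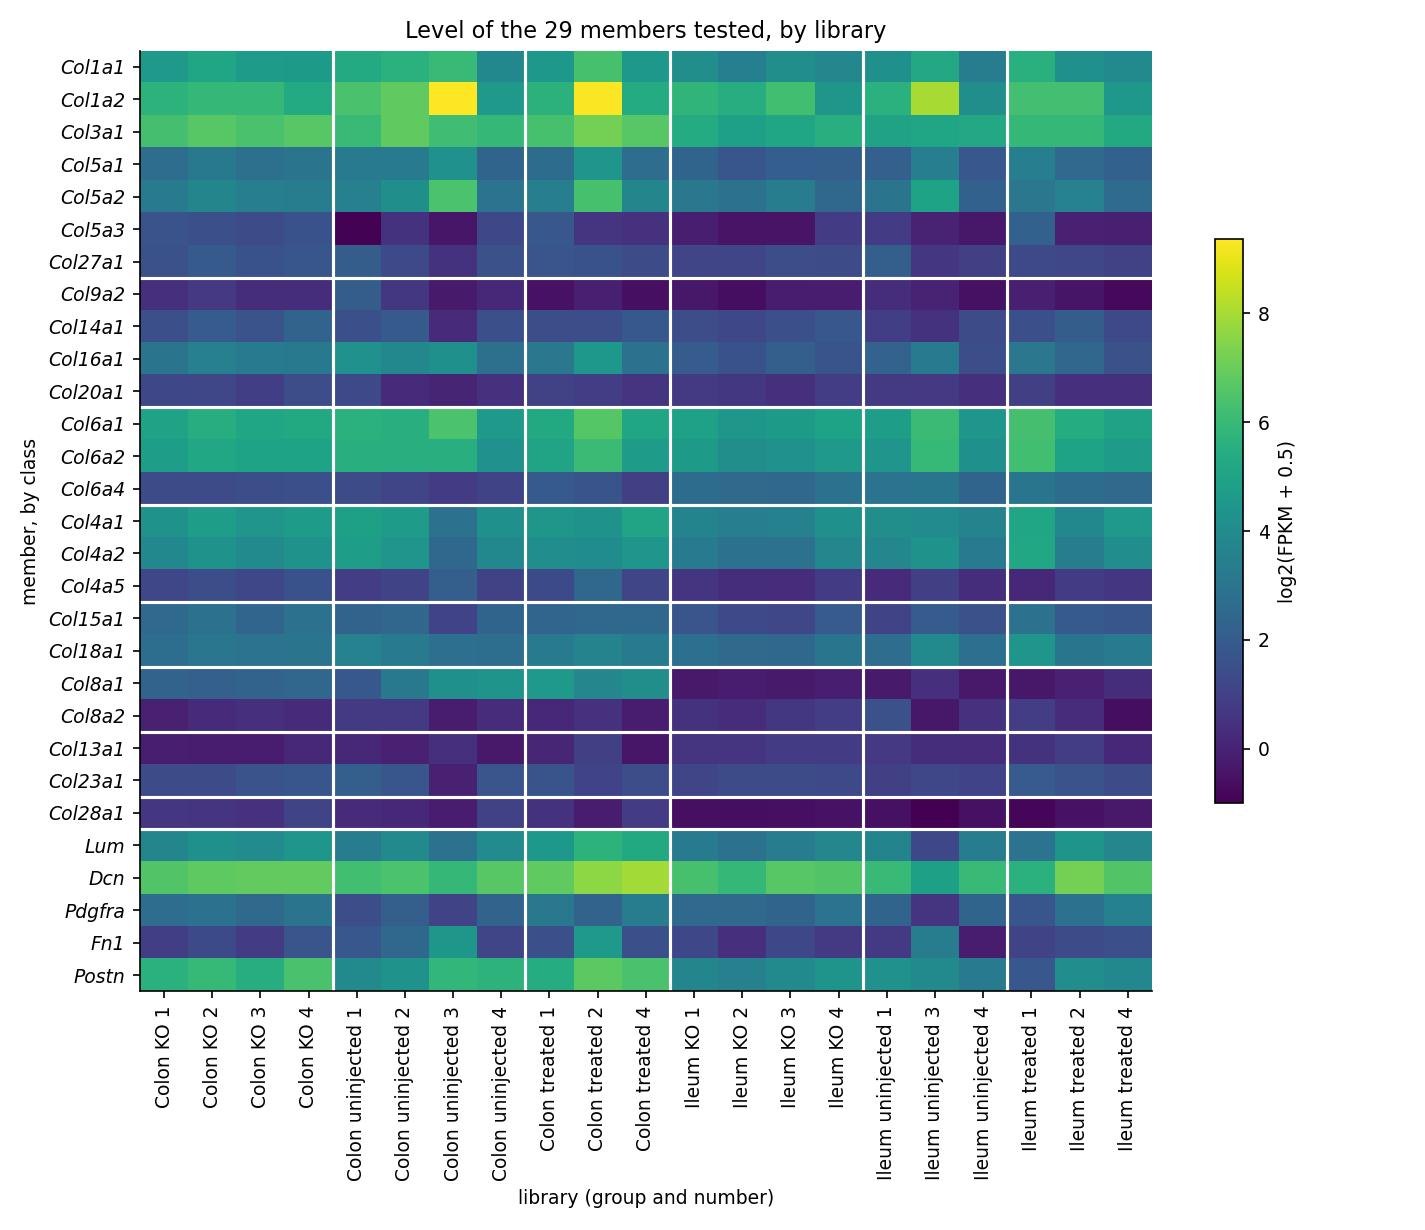
Level of the 29 tested members (rows, by class) in the 21 libraries (columns, by group), as log2(FPKM + 0.5) on the colour scale, with KO and uninjected values from their shared table and treated values from the table shared with KO. Col1a2 reaches 661 and 626 FPKM in Colon uninjected 3 and Colon treated 2, and Col8a1 is bright in part of the colon libraries only.

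Type I collagen, the main fibre of connective tissue, is normally made of α1 and α2 chains from Col1a1 and Col1a2, and its second chain was where libraries differed most. Col1a2 was at 52.2, 59.5, 59.7 and 39.9 FPKM in Colon KO 1 to 4, at 84.1, 112, 661 and 23.2 FPKM in Colon uninjected 1 to 4, and at 50.8, 626 and 41.5 FPKM in Colon treated 1, 2 and 4. A single library of each transgenic group was thus far above the rest of its group. Col1a1 was at 22.9, 33.7, 26.1 and 24.4 FPKM in KO, 40.1, 49.3, 62.5 and 13.8 FPKM in uninjected, and 22.7, 80.3 and 22.7 FPKM in treated colon. The same libraries were highest for Col1a1, but by far less.

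The ratio of the chains within a library does not depend on how a table was scaled. Col1a2 over Col1a1 was 10.6 in Colon uninjected 3, 7.79 in Colon treated 2 and 6.97 in Ileum uninjected 3, and at most 4.49 in the other 18 libraries. Type V collagen, which is built into type I fibres, showed the same order: Col5a2 over Col5a1 was 4.61, 3.99 and 3.05 in those 3 libraries and 0.805 to 2.60 in the other 18. Col5a2 itself was at 85.3 and 82.3 FPKM in the colon pair and between 7.30 and 17.3 FPKM in the other 9 colon libraries. Col3a1, the type III chain, was within the range of the libraries outside these 3 in Colon uninjected 3 (72.6 FPKM, against 58.8 to 115 FPKM) and Ileum uninjected 3 (34.8 FPKM, against 28.6 to 59.2 FPKM), and above it in Colon treated 2 (146 FPKM). Col3a1 over Col1a1 was 0.930 to 1.82 in the 3 libraries. In the other 18 it ran from 1.23 to 4.53, with a median of 3.10, so these ranges overlapped. The ratios are descriptive, and the 3 libraries were singled out after their values were seen.

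**Figure D2:**
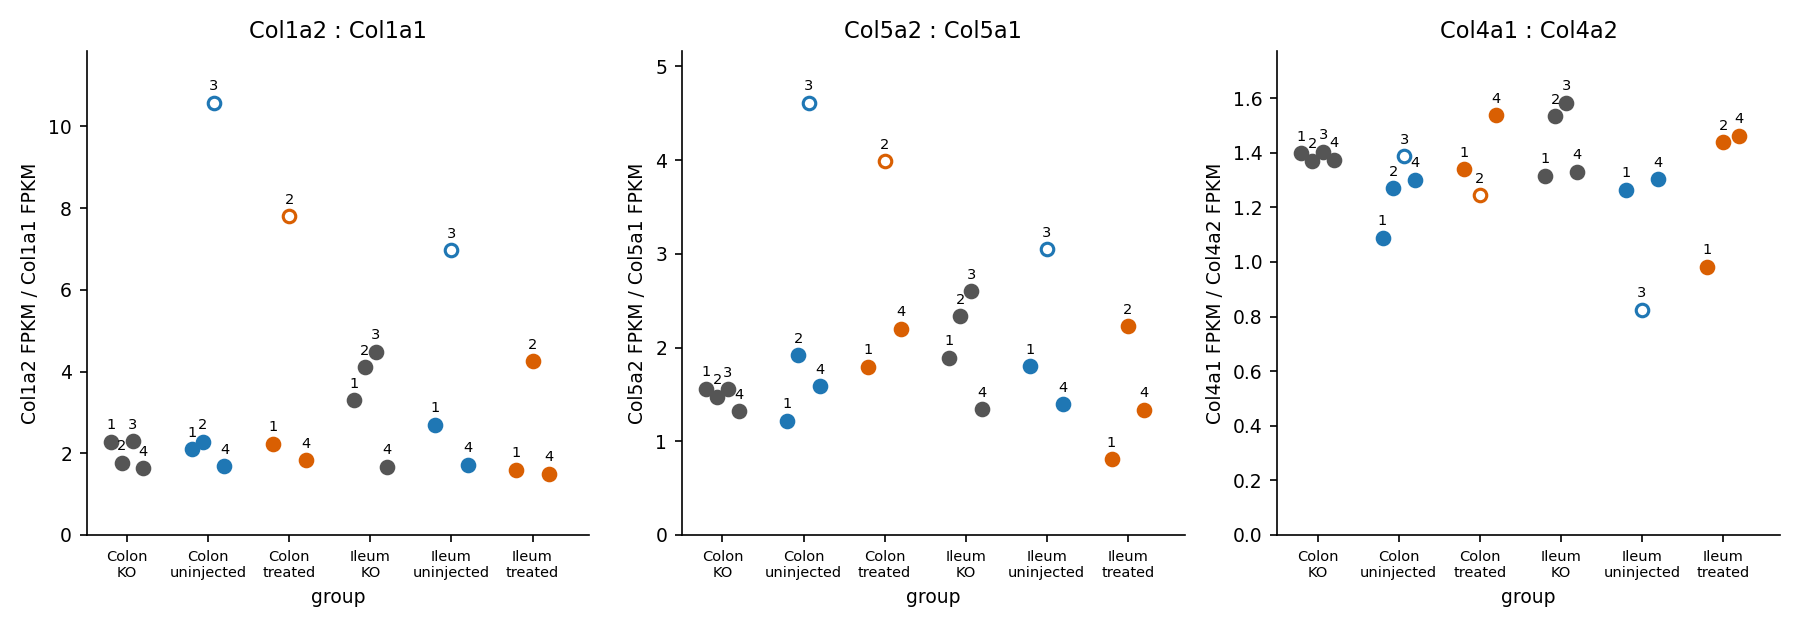
Ratio of 2 chains' FPKM within each library, by group, with library numbers beside the points and open circles for the 3 shallowest libraries. Those 3 are highest for Col1a2 over Col1a1 (6.97 to 10.6) and for Col5a2 over Col5a1 (3.05 to 4.61), while Col4a1 over Col4a2 stays between 0.825 and 1.58 in all 21.

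Among the 29 tested members, 5 were higher in all 3 of these libraries than in every other library of the same tissue outside the 3: Col1a2, Col5a1, Col5a2, Col4a5 and Fn1. Fn1, the adhesive glycoprotein of interstitial matrix, was at 22.0, 23.9 and 9.87 FPKM in them and at most 5.02 FPKM elsewhere in colon and 2.36 FPKM in ileum. Col14a1, which coats fibrils, and Col28a1 were lower in all 3 than in every library of the same tissue outside them. Lum, Dcn and Pdgfra were lowest of the colon libraries in Colon uninjected 3 (6.78, 58.8 and 1.71 FPKM), and lowest of the ileum libraries in Ileum uninjected 3 for Lum (1.85), Dcn (28.99) and Pdgfra (0.994). In Colon treated 2, by contrast, Lum was the highest of all colon libraries at 52.1 FPKM. So these libraries differ in the make-up of the set and not by 1 common factor. A list of 28 other interstitial matrix genes summed to 2209, 2365 and 938 FPKM in the 3 libraries, and the part of depth or cell content in these values was not tested.

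The promoter of Col1a2 is shown because this chain spans the widest range of FPKM among the members in colon, 23.2 to 661. The window runs from 250 bases before to 50 after the RefSeq start (GRCm38.p6, chr6:4505368-4505667, plus strand), and capitals mark CCAAT on either strand, a core promoter motif.
Col1a2: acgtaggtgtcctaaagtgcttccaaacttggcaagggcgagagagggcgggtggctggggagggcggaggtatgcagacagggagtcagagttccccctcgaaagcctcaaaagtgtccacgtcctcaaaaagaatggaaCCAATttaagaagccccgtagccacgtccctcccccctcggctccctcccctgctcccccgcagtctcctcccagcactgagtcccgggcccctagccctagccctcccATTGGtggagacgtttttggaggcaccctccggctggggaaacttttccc
The window holds 2 such matches, 1 on each strand, and 37.4% of 32851 promoters of this length hold at least 1. RefSeq promoters were matched for 35 of the 45 members.

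Col8a1, a short-chain collagen that forms hexagonal networks in basement membranes of vessels and cornea, was the one member to pass the test in any comparison. Its level was 4.64, 4.32, 4.797 and 5.18 FPKM in Colon KO 1 to 4 and 23.6, 13.3 and 17.1 FPKM in Colon treated 1, 2 and 4. All treated libraries lay above all KO libraries. The means were 18.0 ± 5.24 (SD, n = 3) and 4.73 ± 0.356 FPKM (SD, n = 4), a rise of 1.79 in log2(FPKM + 0.5) (SE 0.209), or 3.45-fold on that scale (limma, Benjamini-Hochberg adjusted p = 0.0134 over 12505 genes). In this comparison 0.296% of all tested genes were called, against 1 of 26 members. The recovered reads behind the gene were 530 to 816 in KO and 690 to 3537 in treated libraries. The call was lost when any 1 KO library was left out (adjusted p = 0.0568 to 0.0755, log2 difference 1.75 to 1.83) and without the acinar-rich Colon KO 2 and Colon treated 4 (0.165, log2 difference 1.77).

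Uninjected transgenic colon was mixed for Col8a1: 3.13, 8.55, 18.1 and 20.1 FPKM in libraries 1 to 4, beside 4.38, 4.08, 4.47 and 4.87 FPKM in KO. In the table shared with treated colon, libraries 3 and 4 (18.1 and 20.2 FPKM) lay within the treated range of 12.5 to 22.4 FPKM. Library 1 was below every KO library of the table shared with KO. The difference from KO was 1.10 (SE 0.490, adjusted p = 0.721) and that of treated from uninjected 0.68 (SE 0.582, adjusted p = 0.9995), so neither passed. Ddx3y was at 0.0979 and 0.209 FPKM in libraries 1 and 2 and at 12.1 and 15.0 FPKM in libraries 3 and 4. All KO libraries, at the low Col8a1 levels, had Ddx3y at 11.8 FPKM or more. With labelled sex as a covariate the Col8a1 difference was 2.06. Colon uninjected 4 is the only uninjected colon library labelled male, so this value sets that library alone against KO.

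In ileum Col8a1 stayed between 0.290 and 0.802 FPKM in all 10 libraries and was not tested within the tissue. The ileum effect of treated against KO minus the colon effect was -1.62 (SE 0.324, limma adjusted p = 0.207), so a tissue difference was not called. In the 3 contrasts 0 members were called for one. Of all genes 0.00803% were called for treated against KO, 0.00809% for uninjected against KO and 0 for treated against uninjected. At an unadjusted p under 0.05 stood Col8a1 and Col15a1 for treated against KO, beside 462 of 12448 genes. For uninjected against KO Col5a3 did, beside 147 of 12364 genes. The partner chain of Col8a1, Col8a2, was low everywhere, at 0.160 to 2.48 FPKM over both tissues.

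**Figure D3:**
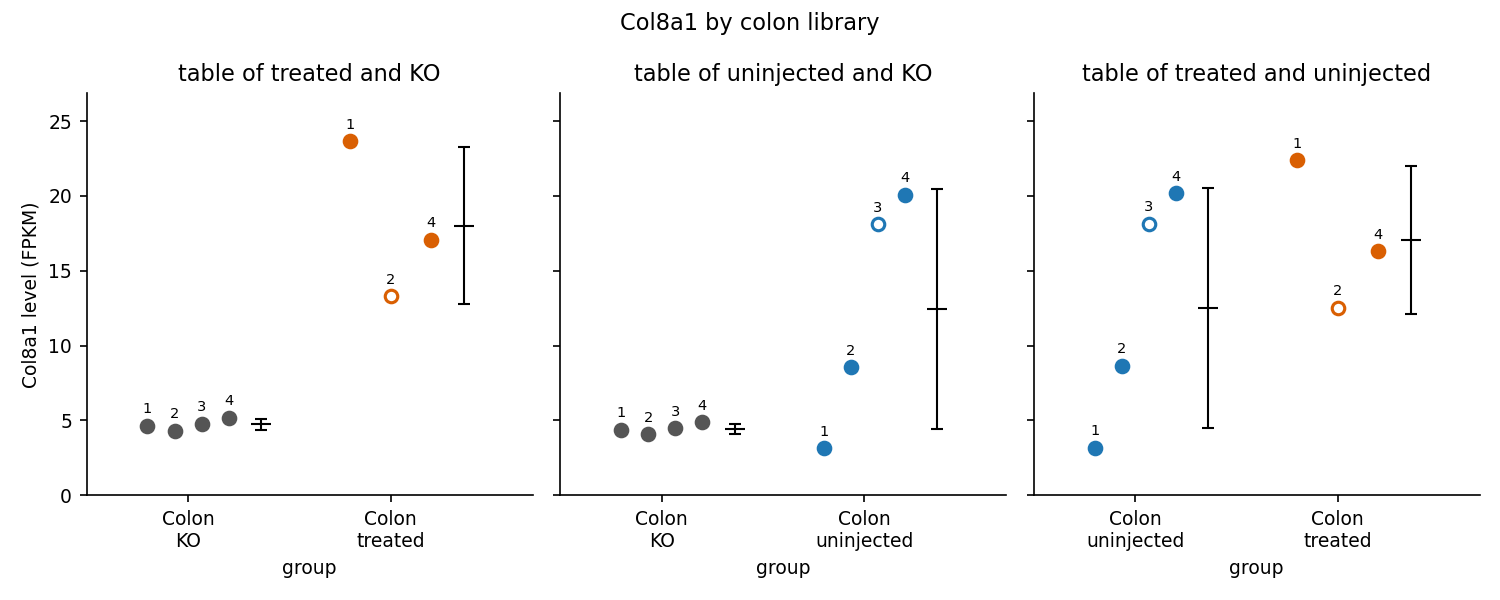
Col8a1 level in FPKM by colon library, each panel from 1 deposited table, with library numbers, means and SD (bars), and open circles for the shallowest libraries. Treated libraries sit at 13.3 to 23.6 FPKM, KO libraries at 4.32 to 5.18 FPKM, and uninjected libraries spread from 3.13 to 20.1 FPKM.

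The Col8a1 promoter is shown since this member passed the test. In mm9, the build the files use, the gene lies at chr16:57624371-57754850 on the minus strand. The window below is GRCm38.p6 chr16:57754688-57754987, minus strand, with capitals for GGGCGG, the core of a GC box, here read on the other strand as CCGCCC.
Col8a1: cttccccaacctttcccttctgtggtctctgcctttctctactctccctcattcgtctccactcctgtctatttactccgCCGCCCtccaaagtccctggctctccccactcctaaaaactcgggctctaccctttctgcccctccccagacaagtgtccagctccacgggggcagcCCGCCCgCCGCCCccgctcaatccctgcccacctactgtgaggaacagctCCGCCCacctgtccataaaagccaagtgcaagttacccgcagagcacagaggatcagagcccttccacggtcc
It holds 4 matches, and 35.7% of all promoters of this length hold at least 1. CCAAT was not found in either direction.

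In the same comparison of treated with KO colon, 18 of 26 tested members were higher and 8 lower, with a median of 0.19 on the log2 scale, beside -0.01 for all genes. Without Colon treated 2 the median was -0.08, so its sign rested on that library. The members' groups did not overlap for Col8a1 and Col18a1 (higher) and for Col15a1 (lower), 3 of 26, where 8.04% of all genes were separated. The endostatin-bearing collagen Col18a1 was at 6.56, 8.40, 7.69 and 7.98 FPKM in KO and 8.99, 11.9 and 9.15 FPKM in treated colon, a difference of 0.36 (SE 0.171, adjusted p = 0.711). Its relative Col15a1, also of basement membrane zones, was at 5.68, 7.23, 5.06 and 7.29 FPKM against 4.71, 4.96 and 5.05 FPKM. Other cell types' markers differed beside these genes. All 8 smooth muscle markers were lower in treated colon without a call, with none at 0, and their sums were 1393 to 1727 FPKM against 2301 to 3243 FPKM in KO. Of 7 tested leukocyte markers 6 were higher without a call, with sums of 49.4 to 109 FPKM in treated and 29.2 to 50.6 FPKM in KO colon. The 6 tested endothelial markers were all lower, with sums of 22.1 to 41.4 FPKM in treated and 31.6 to 37.4 FPKM in KO colon. Of 8 epithelial markers 7 were lower, and of 6 tested enteric glia and neuron markers 5 were higher, with overlapping sums. None of these was called. The part of these marker lists in the members' values was not tested.

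The small leucine-rich proteoglycans Lum and Dcn, which bind collagen and space its fibrils, had their highest colon means in the treated group. Lum was at 22.3, 52.1 and 38.9 FPKM in Colon treated 1, 2 and 4 and at 13.7, 18.9, 16.4 and 22.4 FPKM in KO, so that the lowest treated and the highest KO library crossed. Its difference of 1.00 (SE 0.298) gave an adjusted p of 0.421 with limma. Dcn was at 113, 194 and 243 FPKM against 97.9, 117, 124 and 126 FPKM, a difference of 0.59 (SE 0.267, adjusted p = 0.691).

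**Figure D4:**
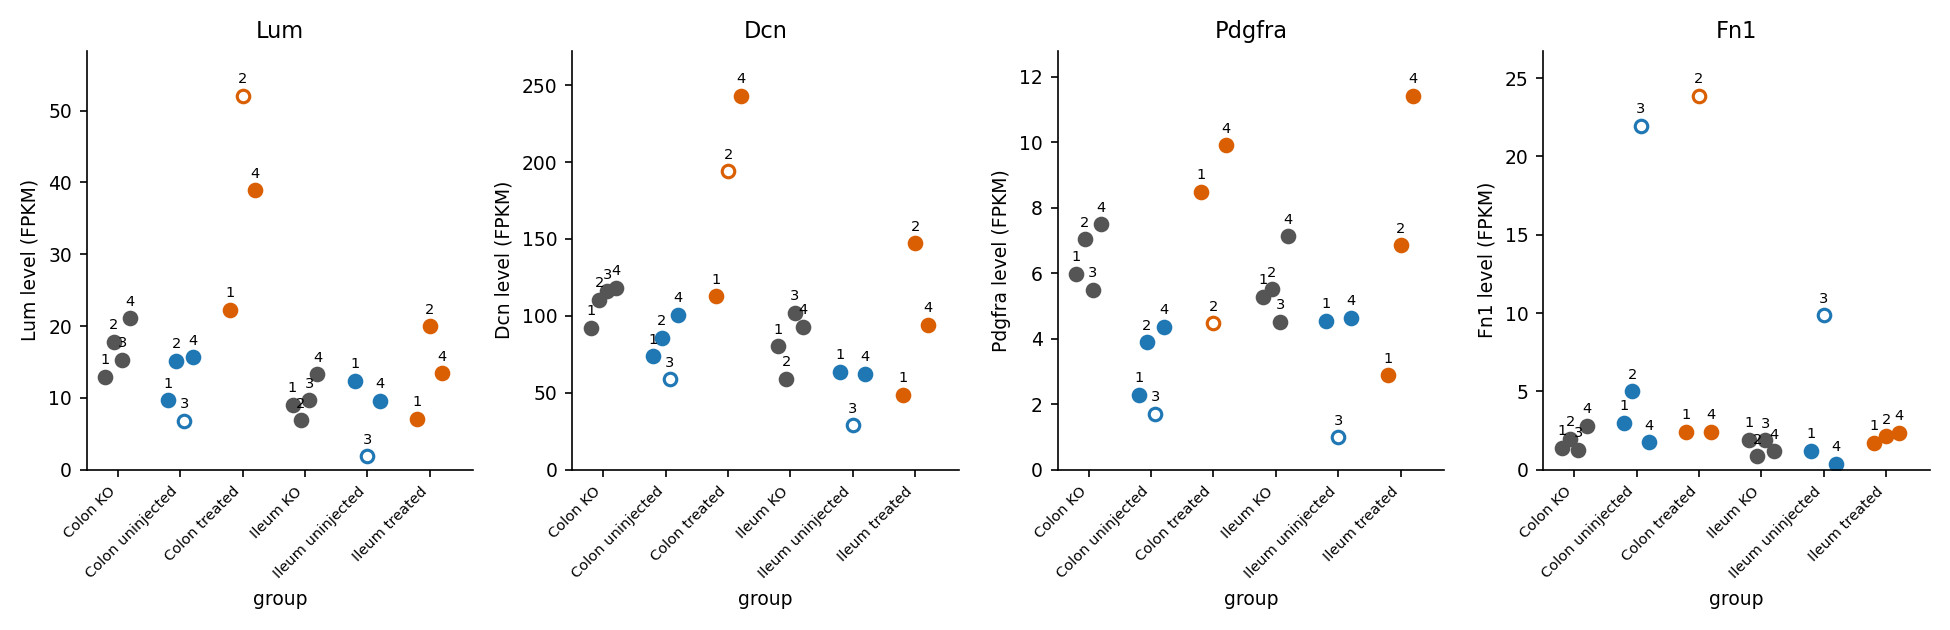
Levels in FPKM of Lum, Dcn, Pdgfra and Fn1 by library and group, with library numbers and open circles for the 3 shallowest libraries; KO and uninjected values come from their shared table and treated values from the one shared with KO. Colon Lum runs from 6.78 to 52.1 FPKM, and Fn1 is high in the open circles only (9.87 to 23.9 FPKM).

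Against uninjected colon the same genes were separated but not called. In the table of these groups Lum was at 9.77, 15.3, 6.79 and 15.7 FPKM in uninjected and 21.1, 49.1 and 37.1 FPKM in treated libraries. Dcn was at 74.4, 86.5, 58.9 and 101 FPKM against 107, 183 and 232 FPKM. These were the 2 of 25 members whose groups did not overlap, beside 1.37% of all genes. No member passed the limma test, and 0 of 12567 genes did (143 genes and 3 members, Lum, Dcn and Pdgfra, had an unadjusted p under 0.05). Pdgfra, the receptor that marks gut fibroblasts, was at 2.31, 3.93, 1.71 and 4.39 FPKM in uninjected and 8.02, 4.22 and 9.45 FPKM in treated colon, overlapping by 1 library. Postn, a matricellular protein of fibroblasts, spanned 14.7 to 57.9 FPKM in uninjected and 40.0 to 102 FPKM in treated colon. The median difference of the 25 members was 0.22, and -0.02 without Colon uninjected 3 and Colon treated 2. All 6 tested endothelial markers were higher in treated colon without a call (sums 20.8 to 39.5 against 10.9 to 28.0 FPKM). Of the 8 smooth muscle, 8 epithelial and 8 acinar markers, 7 each were lower without a call, with overlapping sums. The median difference was -0.86 for smooth muscle and -0.30 for epithelial markers, beside 0.29 for endothelial ones. The part of these lists was not tested.

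Between uninjected and KO colon the smallest p-values were those of Pdgfra and Col5a3, both lower in uninjected libraries. Pdgfra was at 5.98, 7.03, 5.49 and 7.49 FPKM in KO and 2.29, 3.89, 1.71 and 4.36 FPKM in uninjected libraries, with no overlap. Its difference was -1.04 (SE 0.286, adjusted p = 0.721, limma). Col5a3, a minor fibril chain, was at 2.62, 2.37, 2.14 and 2.56 FPKM in KO and at 0.0183, 0.940, 0.277 and 1.86 FPKM in uninjected libraries, again without overlap (difference -1.43, SE 0.446, adjusted p = 0.721). These are the 2 of 26 members that were separated, where 2.71% of all genes were. None of the 26 was called, beside 0.0804% of all genes. At an unadjusted limma p under 0.05 stood 3 members (Pdgfra, Col5a3 and Col8a1), beside 572 of 12437 genes. The members' median was -0.18, with 11 higher and 15 lower, and -0.0010 without Colon uninjected 3. With labelled sex as a covariate it was -0.33, with 2 of 26 higher. That fit sets Colon uninjected 4, the only uninjected colon library labelled male, alone against KO. Endothelial markers were lower too, 6 of 6 tested without a call, with sums of 10.9 to 27.7 FPKM in uninjected and 29.8 to 35.2 FPKM in KO colon, none at 0. Their part in the lower Pdgfra was not tested.

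Among the type IV chains, the scaffold of basement membranes, Col4a1 and Col4a2 varied together. Col4a5 did not follow them in every library. In Colon uninjected 3 it was at 3.92 FPKM, above the 1.36 to 2.56 FPKM of the colon libraries outside the shallowest, while Col4a6 was below them at 0.221 FPKM. Col4a1 and Col4a2 encode the chains of the commonest type IV trimer and are read in opposite directions from a shared start region. In mm9 Col4a1 lies at chr8:11198423-11312826 on the minus strand and Col4a2 at chr8:11312805-11449287 on the plus strand. Across libraries Col4a1 over Col4a2 ran from 0.825 (Ileum uninjected 3) to 1.58, a narrower range than that of Col1a2 over Col1a1. Their RefSeq promoter windows (GRCm38.p6, chr8:11312777-11313076, minus strand, and chr8:11312555-11312854, plus strand) overlap, and capitals mark the 78 bases both share, each read on its own strand.
Col4a1: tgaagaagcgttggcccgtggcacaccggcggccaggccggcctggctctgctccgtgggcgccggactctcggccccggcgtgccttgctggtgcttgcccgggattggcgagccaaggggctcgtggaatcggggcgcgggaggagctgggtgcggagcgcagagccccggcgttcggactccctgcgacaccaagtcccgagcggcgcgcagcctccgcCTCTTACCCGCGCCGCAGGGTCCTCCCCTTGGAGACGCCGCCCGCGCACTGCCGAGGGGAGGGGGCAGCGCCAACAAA
Col4a2: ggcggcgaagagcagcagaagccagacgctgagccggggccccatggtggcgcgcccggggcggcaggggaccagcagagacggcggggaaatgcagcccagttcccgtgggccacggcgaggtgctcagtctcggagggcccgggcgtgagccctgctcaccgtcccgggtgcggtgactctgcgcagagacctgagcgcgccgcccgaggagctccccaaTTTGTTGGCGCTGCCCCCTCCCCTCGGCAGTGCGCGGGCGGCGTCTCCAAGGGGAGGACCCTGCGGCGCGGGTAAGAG
The start sites are 21 bases apart, and each window holds 1 CCAAT match counted over both strands.

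In colon Col4a1 was at 19.3, 26.8, 20.7 and 26.2 FPKM in KO, 29.4, 26.1, 7.09 and 18.2 FPKM in uninjected, and 21.9, 19.8 and 32.6 FPKM in treated libraries. Colon uninjected 3, the highest for Col1a2, was the lowest for Col4a1 and for Col4a2 (5.11 FPKM). Of the other type IV chains Col4a5 was at 0.612 to 4.98 FPKM over both tissues, Col4a6 at 0.174 to 1.07 FPKM, and Col4a3 and Col4a4 stayed at or under 0.235 FPKM. The kidney and lung form of the network, built from those last chains, was thus near 0.

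In ileum the type IV, type VI and multiplexin genes had the smallest p-values of the members for treated against KO, and 1 library led them. Col4a2 was at 9.82, 6.998, 7.45 and 14.1 FPKM in Ileum KO 1 to 4 and at 35.3, 9.72 and 16.4 FPKM in Ileum treated 1, 2 and 4. Col6a2, a chain of the beaded filaments, was at 25.7, 17.5, 19.6 and 25.1 FPKM against 75.0, 31.7 and 25.4 FPKM. Col18a1 was at 6.60, 5.79, 5.36 and 8.17 FPKM against 20.6, 7.72 and 9.54 FPKM. Ileum treated 1 was the highest library for all 3, and the groups overlapped. The differences were 0.91 for Col4a2 (SE 0.430), 0.84 for Col6a2 (SE 0.375) and 0.80 for Col18a1 (SE 0.348), each with a limma adjusted p of 0.939. Without Ileum treated 1 they were 0.43, 0.38 and 0.40. That library was the lowest of the ileum treated and KO libraries for Postn (3.05 FPKM), Dcn (48.7 FPKM) and Pdgfra (2.88 FPKM).

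Over all 24 members tested there, 20 were higher and 4 lower, with a median of 0.34 against 0.00 for all genes, and of 0.20 without Ileum treated 1. None was called and none was separated between groups, while 0.0835% of all genes were called and 5% were separated. At an unadjusted limma p under 0.05 stood 1 member, Col18a1, beside 437 of 11974 genes. Among the 8 acinar markers all were higher in treated ileum without a call, with sums of 35.4 to 395 FPKM against 9.96 to 47.8 FPKM. Ileum treated 1 had an acinar sum of 40.8 FPKM. Its smooth muscle markers summed to 2769 FPKM, against 1214 and 799 FPKM in Ileum treated 2 and 4 and 975 to 1697 FPKM in KO. Of the smooth muscle markers 5 were higher and 3 lower in treated ileum, without a call. The part of either list was not tested.

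Uninjected against KO ileum gave 13 higher and 11 lower of 24 members, and a median of 0.08 that was -0.10 without Ileum uninjected 3. There was no call, with 0.00846% of all genes called. No member stood at an unadjusted limma p under 0.05, beside 641 of 11827 genes. No member was separated, against 8.61% of all genes. Dcn had the smallest p, at 80.2, 59.2, 102 and 92.7 FPKM in KO and 63.6, 28.99 and 62.3 FPKM in uninjected ileum (difference -0.74, SE 0.352, adjusted p = 0.665, limma). Pdgfra followed at -0.84 (SE 0.437) and -0.25 without Ileum uninjected 3. Endothelial marker sums were 16.5 to 19.6 FPKM in uninjected and 22.1 to 28.6 FPKM in KO ileum, with 4 of 6 tested markers lower without a call, and their part was not tested.

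Treated against uninjected ileum gave 15 higher and 7 lower of 22 members, a median of 0.38 beside -0.02 for all genes (0.055 without Ileum treated 1 and 0.078 without Ileum uninjected 4), and no call by limma among 11815 genes (97 genes and 0 members at an unadjusted p under 0.05). The groups did not overlap for 2 members, both higher, where 2.7% of all genes were separated. Col3a1 was at 30.0, 33.6 and 36.67 FPKM in uninjected and 54.2, 54.5 and 36.74 FPKM in treated ileum, so the lowest treated library lay just above the highest uninjected one. Col23a1, a transmembrane collagen, was at 1.42, 1.72 and 1.59 FPKM against 3.11, 2.42 and 2.01 FPKM (difference 0.52, SE 0.363, adjusted p = 0.999999). All 6 tested endothelial markers were higher in treated ileum without a call, with sums of 23.8 to 34.0 FPKM against 16.0 to 18.9 FPKM, and 7 of 8 epithelial markers were lower without a call; the part of either list was not tested.

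**Figure D5:**
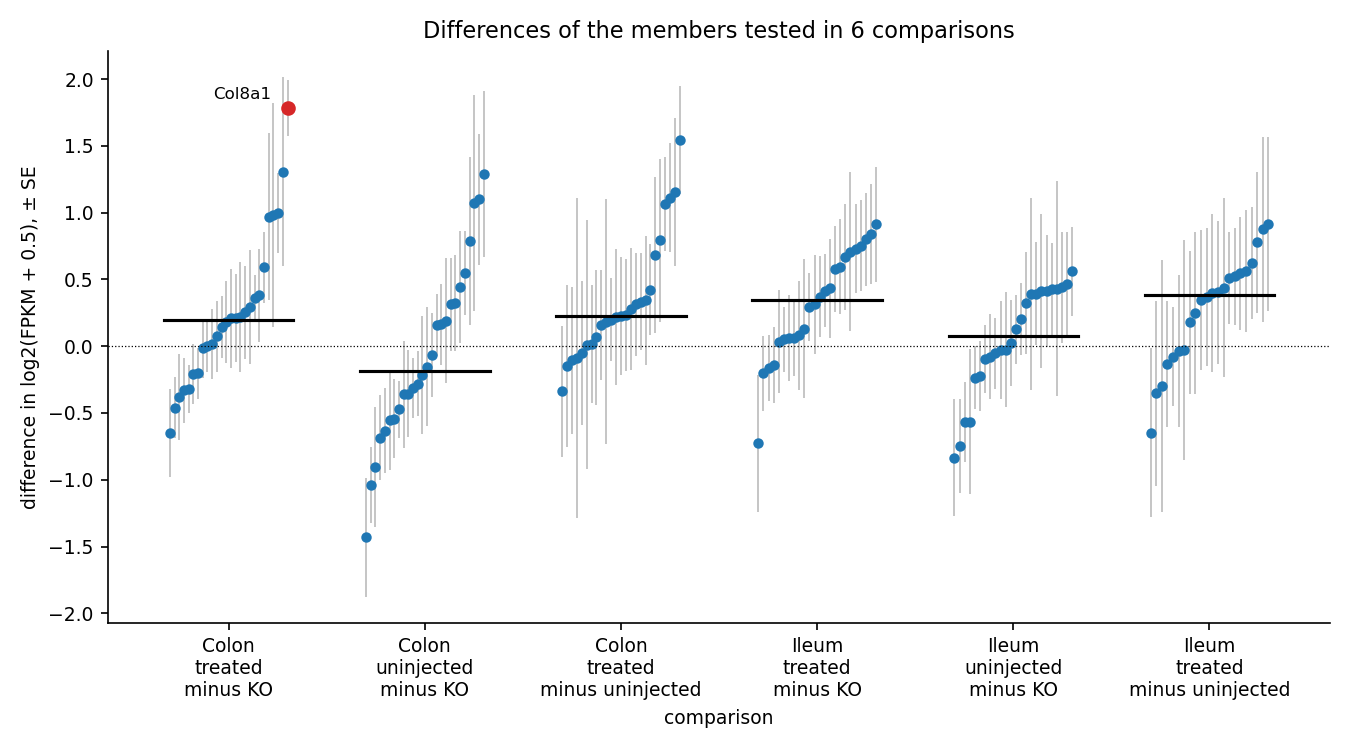
Difference in log2(FPKM + 0.5) with its SE for each tested member (points, sorted) in the 6 comparisons, with the members' median as a black bar and the called member in red. Col8a1 in treated minus KO colon (1.79) is the only red point, and the medians run from -0.18 to 0.38.

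The remaining collagens were mostly low. For the type VI chains, Col6a1 over Col6a2 was 1.92 in Colon uninjected 3, 1.48 in Colon treated 2 and 1.09 in Ileum uninjected 3. In the other 18 libraries this ratio was 1.01 to 1.35. Col6a4 was at 1.27 to 3.38 FPKM in colon and 4.61 to 7.72 FPKM in ileum. Col16a1, a fibril-associated chain, was at 6.65 to 22.8 FPKM in colon and 2.32 to 8.81 FPKM in ileum. The epithelial collagens of skin-type adhesion were near the floor: Col17a1, of hemidesmosomes, was at most 0.0727 FPKM, and Col7a1, of anchoring fibrils, at 0.142 to 1.99 FPKM. The cartilage chains Col2a1, Col9a1, Col10a1 and Col11a1 reached 2.89, 0, 0.0746 and 1.18 FPKM at most, with the Col2a1 and Col11a1 maxima in Colon treated 2. The related chains Col9a2, Col9a3 and Col11a2 reached 3.63 FPKM (Colon uninjected 1), 0.679 FPKM and 0.793 FPKM.

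Genes that act on collagen were read from 7 lists chosen for this purpose. Prolyl and lysyl hydroxylases, chaperones and other folding genes gave 0 calls of 16 or 17 tested in each comparison, and the secretion, trimming and crosslinking list 0 of 9 to 12. In treated against KO ileum all 9 tested genes of that second list were higher without a call, with sums of 173 to 337 FPKM against 136 to 169 FPKM. Other interstitial matrix genes, non-collagen basement membrane genes, collagen receptors, and TGF-beta and PDGF signalling genes gave 0 calls in every comparison. Since 0 to 0.296% of all genes were called in these comparisons, lists of this size with 0 calls do not stand apart from the background. Of all tested genes 50.2% were higher in treated than in KO ileum.

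The list of matrix proteases and their inhibitors held the one exception, Timp1, an inhibitor of the metalloproteinases that cut collagen. Timp1 was at 3.57, 4.23, 4.42 and 2.60 FPKM in KO and 17.5, 45.3 and 47.9 FPKM in treated colon, a rise of 3.05 (SE 0.358, limma adjusted p = 0.0134). In ileum it was at 2.36, 3.02, 5.07 and 1.66 FPKM in KO and 21.7, 15.3 and 21.9 FPKM in treated libraries, a rise of 2.58 (SE 0.345, adjusted p = 0.0422). Both pairs of groups were fully separated. Uninjected colon was mixed at 5.02, 8.72, 45.2 and 0.751 FPKM, the high value again in library 3. Uninjected ileum was mixed too, at 3.13, 20.1 and 0.891 FPKM in libraries 1, 3 and 4. In the table shared with treated ileum, library 3 (19.4 FPKM) lay within the treated range of 14.2 to 20.5 FPKM. The difference of treated from uninjected colon was 2.13 (SE 1.02, adjusted p = 0.9995) and did not pass. Leaving out Colon KO 1, 2 or 4 ended the colon call (adjusted p = 0.0551 to 0.0625), as did leaving out the acinar-rich libraries (0.154). The ileum call ended without any 1 library other than Ileum KO 3 (0.0841 to 0.196), and with a pseudocount of 0.1, no filter, quantile or median scaling (0.0508 to 0.103). In treated against KO colon all 15 tested genes of this list were higher, 1 of them called, with a median of 0.58, where 49.0% of all genes were higher and their median was -0.01.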

How the data were processed

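Poly(A)-selected RNA was prepared with NEBNext Ultra II kits and mapped to the mouse genome in CLC Genomics Workbench, per the labels' protocols. Per the submitters' processing notes, the build was mm9, and kallisto 0.45.0, DESeq2 and DESeq 1.14.0 are listed without their roles. The deposited FPKM values, made by the authors, stand in 6 tables, 1 for each pair of groups in a tissue. Columns of treated and of uninjected ileum libraries name a group and a number but not a single labelled sample. The series text counts 3 uninjected and 4 treated colon samples, and the labels and columns, which were followed, 4 and 3.

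From these, log2(FPKM + 0.5) was fitted with limma 3.58.1 (R 4.3.3) with an intensity trend, over genes averaging 1 FPKM or more across a comparison's libraries, with Benjamini-Hochberg adjustment over all tested genes and a threshold of 0.05, two-sided. A fold on this scale understates changes of low genes. The tissue difference was an interaction in a fit of 4 groups. Reads were recovered from low FPKM steps with a tolerance of 0.01 reads. The fit was checked on simulated data. Named by rule were a set of abundant collagen chains and the fibroblast genes, any member past the test, up to 5 members with the smallest p per comparison and up to 3 genes per list; differences are printed for part of these, and other members are given by range. Members and lists were chosen with earlier results of these data known. Alternatives were other pseudocounts (0.1 and 1), no filter, quantile and median scaling, no trend, each library left out, a replicate block and a sex covariate. Gene positions come from GENCODE vM1 (mm9), where all 45 members matched, and promoters from RefSeq (GRCm38.p6). Data tables were handled in Python 3.11.15.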

Additional observations from a re-analysis of the deposited data

Results flagged for a closer look

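In groups of 4 libraries, 5 of 69 sets of values had 1 library whose gap to the next was large for the range (Dixon's test). Each set was 1 gene in 1 group, from named members and Timp1. Chance flags about 1 in 20 of independent, normally distributed sets, and these sets share libraries. Of these, 4 were in Colon uninjected 3: Col1a2 at 661 FPKM and Fn1 at 22.0 FPKM were high, Col7a1 was high at 1.99 FPKM, and Col15a1 was low at 1.64 FPKM. The other was Col6a2, low at 18.3 FPKM in Colon uninjected 4, where the other 3 uninjected colon libraries lay within 44.3 to 44.9 FPKM.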

How the results depend on the processing

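Col8a1 in treated against KO colon was the 1 member called under each changed pseudocount, filter, scaling and trend, and 0 members were called without the acinar-rich libraries, an alternative chosen after seeing the data. Leaving out 1 library at a time gave 0 to 1 members called there. In the other 5 comparisons, and for the tissue differences, 0 members were called in every alternative run. The median difference moved by more than the spread between replicates in some. For treated against KO colon it was -0.084 without the shallowest library and ran from -0.084 to 0.36 with 1 library left out. For uninjected against KO colon it moved beyond that spread with no filter (0.030), without the acinar-rich libraries (0.086) and without Colon uninjected 1 (-0.39). The other 15 of 18 alternatives stayed within the spread around -0.18. With 1 library left out the median ran from -0.39 to -0.0010. With the sex covariate, which sets Colon uninjected 4 alone against KO, it was -0.33, within the spread. For treated against uninjected colon it was -0.023 without the shallowest and 0.46 without the acinar-rich libraries, both sets chosen after seeing the data. For treated against KO ileum it was 0.039 with no filter. With no filter the other medians were closer to 0 as well, at 0.037 and 0.059 for treated against KO and against uninjected colon, and at 0.0021 and 0.018 for uninjected against KO and treated against uninjected ileum. Without the filter 44 members were tested in each comparison, against 22 to 26 with it. The cause of these shifts was not tested. Over all genes, calls for treated against KO colon fell from 37 to 14 without the acinar-rich libraries and ran from 17 to 49 with 1 library left out. For uninjected against KO colon they were 10, then 3 without the acinar-rich libraries, and 2 to 68 with 1 library left out. For treated against uninjected colon 0 became 1 with no filter or without the acinar-rich libraries, and 0 to 4 with 1 left out. For treated against KO ileum 10 became 3 to 14 with 1 left out, and for uninjected against KO ileum 1 became 2 with a pseudocount of 0.1, 0 under median scaling or without the shallowest library, and 0 to 5 with 1 left out.

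A replicate block was possible only for uninjected against KO colon, where columns carry label numbers. Same-numbered samples had correlations of deviations of 0.0037, -0.0027, -0.0064 and 0.67 for numbers 1 to 4. Only number 4 showed a shared deviation, so whether the number pairs samples was not settled. With the block 3 genes and 0 members were called and the members' median stayed at -0.18. The part of depth in members near 1 FPKM was not tested. Simulated data (5 draws) took each gene's own spread, drawn independently per gene, so shifts that a library shares across genes were absent. There 4-fold changes were recovered in 77.2% of changed genes for treated against KO colon (12342 genes). The recovery was 35.2% for treated against uninjected colon (12332 genes) and 5.2% for treated against uninjected ileum (11588 genes). For 8-fold changes it was 89.6%, 67.2% and 41.6%.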
